A study of Homo sapiens with 18 samples.

Results

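The nuclear-encoded oxidative phosphorylation genes encode the protein subunits of the respiratory chain and of ATP synthase that are made in the cytosol and imported into mitochondria. They were taken as the genes whose symbol begins with NDUFA, NDUFB, NDUFC, NDUFS or NDUFV and a digit, with UQCR, with COX and a digit from 4 to 8, or with ATP5F, ATP5M or ATP5P, together with SDHA, SDHB, SDHC and SDHD, and that had more than 1 CPM (reads of a gene scaled to the size of its library) in at least 9 of the 18 libraries. Of 91 symbols of this form, 82 passed the level, among 12757 genes with a symbol that passed the same level and 21411 genes in the count table. Complex I held 36 of them, complex II 4, complex III 10, complex IV 13 and complex V 19. UQCRHL, UQCRBP1, ATP5F1EP2 and ATP5MGL are copies of UQCRH, UQCRB, ATP5F1E and ATP5MG, and reads may have been split between a copy and its parent gene, so their values are uncertain. NDUFA4 was placed in complex IV, where its product is now known to reside.

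RNA was sequenced from the triple-negative breast cancer line MDA-MB-231 after 7 days in 3D Matrigel, in 6 groups of 3 biological replicates (18 libraries). Jag1WT was the unedited parental line, and Jag1KO the same line after CRISPR-Cas9 editing of JAG1, which encodes the Notch ligand Jagged1. The Jag1KO cells were a mixture of single-cell clones. Jag1KO + rescue and Jag1KO + ctrl were Jag1KO cells that carried a plasmid with or without Jagged1 cDNA, both kept under G418, so that these 2 groups differed from Jag1KO also by plasmid and drug. siCtrl and siJag1 were wild-type cells given nontargeting or Jagged1-targeting siRNA before seeding.

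Electrons from NADH enter the chain at complex I and those from succinate at complex II, and both pass through complex III and cytochrome c to complex IV, which reduces oxygen. Complexes I, III and IV pump protons out of the mitochondrial matrix, and complex V, the ATP synthase, makes ATP as the protons flow back. Most subunits are encoded in the nucleus and a few in the mitochondrial genome, and the transcription factors NRF1, GABP (an ETS factor) and YY1 are known to bind many of the nuclear promoters.

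The reads counted on genes ranged from 10330581 to 18327890 per library. JAG1 had 432.7, 585.4 and 522.1 CPM in the 3 Jag1WT libraries and 115.8, 205.0 and 148.9 in Jag1KO. It had 534.3, 657.0 and 646.2 CPM in Jag1KO + rescue, 110.2, 134.2 and 147.1 in Jag1KO + ctrl, 441.1, 625.8 and 530.6 in siCtrl and 166.5, 202.5 and 131.1 in siJag1, so the groups with JAG1 removed or silenced did not overlap the others. These counts cover the whole gene and do not read the edit itself. The mesenchymal genes VIM, CD44, CAV1 and AXL, typical of this line, were high in every library (lowest CAV1, 127.3 CPM), and ESR1, CDH1 and PGR did not exceed 0.136, 1.16 and 1.77 CPM. Of the markers of other cell types, PTPRC (leukocytes) did not exceed 0.196 CPM and PDGFRB (fibroblasts) 1.35, while COL1A1 (fibroblasts) ran from 2.66 to 10.04 and PECAM1 (endothelium) from 0.954 to 15.1. Jag1KO replicate 1 and Jag1KO + ctrl replicate 3 stood apart from their groups in a list of 97 cell cycle genes. Their mean log2(CPM + 1) was 4.11 and 4.41, against 5.55 and 5.67 in the other Jag1KO libraries and 5.72 and 6.09 in the other Jag1KO + ctrl libraries. siJag1 replicate 2 was at 6.07, against 4.32 and 4.41 in the other siJag1 libraries. The counts of called genes and the medians of comparisons that use the first 2 of these libraries are given with and without them. In bulk RNA, fewer cells of a kind and less RNA per cell cannot be told apart.

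Promoter sequences were looked up for the 82 genes in RefSeq (GRCh38.p14) as windows of 300 bases, from 250 before to 50 after each start, and 66 matched. The letters GCATGCGC, part of the NRF1 motif, were present on either strand in 13 of the 66 (19.7%), in 5.75% of 10168 promoters of the genes tested and in 3.27% of all 27305 promoters of the same length. The ETS letters CCGGAAGT were in 10 (15.2%, against 9.22% and 4.44%), and the YY1 letters AAGATGGC in 11 (16.7%, against 5.67% and 3.03%). The SP1 letters GGGCGG were in 40 (60.6%, against 69.9% and 44.6%). At least 1 of the NRF1, ETS and YY1 strings was found in 28 of the 66 promoters (42.4%) and in 18.9% of those of the genes tested. These are matches of letters, not measured binding, and no test was made. The promoters are shown for 3 genes with 2 of the 3 strings before the start, ATP5PF (chr21:25735055-25735304, minus strand), COX5B (chr2:97645812-97646061, plus strand) and SDHD (chr11:112086623-112086872, plus strand), and for the genes that departed most from the shared pattern described further on, NDUFV3 (chr21:42893059-42893308, plus strand) and COX7A2L (chr2:42361218-42361467, minus strand), which had none of the 3 strings in the window. Each sequence is the 250 bases before the start, 5′ to 3′ on the strand of the gene, with NRF1, ETS and YY1 strings in capitals. The genes with 2 strings do not all follow the shared pattern closely, since the correlation with it given further on was 0.83 for ATP5PF, 0.33 for COX5B and 0.28 for SDHD. In SDHD, NRF1 strings on the 2 strands overlap to form 1 palindrome.
ATP5PF: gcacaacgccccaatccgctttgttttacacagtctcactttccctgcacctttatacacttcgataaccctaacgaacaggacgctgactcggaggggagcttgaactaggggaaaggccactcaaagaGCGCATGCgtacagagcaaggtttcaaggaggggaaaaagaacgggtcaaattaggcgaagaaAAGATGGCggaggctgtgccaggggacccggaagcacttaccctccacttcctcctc
COX5B: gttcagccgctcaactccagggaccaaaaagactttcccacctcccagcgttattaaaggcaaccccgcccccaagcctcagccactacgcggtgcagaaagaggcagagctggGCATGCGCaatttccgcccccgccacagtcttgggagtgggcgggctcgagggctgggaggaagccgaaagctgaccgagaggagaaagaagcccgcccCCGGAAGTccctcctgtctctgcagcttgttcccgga
SDHD: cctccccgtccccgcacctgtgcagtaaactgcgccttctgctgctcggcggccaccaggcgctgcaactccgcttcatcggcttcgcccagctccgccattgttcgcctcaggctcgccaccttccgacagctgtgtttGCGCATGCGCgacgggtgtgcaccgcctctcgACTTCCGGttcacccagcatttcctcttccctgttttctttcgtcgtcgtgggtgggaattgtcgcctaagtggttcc
NDUFV3: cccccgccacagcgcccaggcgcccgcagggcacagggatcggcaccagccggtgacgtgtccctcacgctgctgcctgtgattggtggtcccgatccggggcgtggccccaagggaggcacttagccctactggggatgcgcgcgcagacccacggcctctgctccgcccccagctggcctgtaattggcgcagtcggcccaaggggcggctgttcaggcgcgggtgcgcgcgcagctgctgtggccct
COX7A2L: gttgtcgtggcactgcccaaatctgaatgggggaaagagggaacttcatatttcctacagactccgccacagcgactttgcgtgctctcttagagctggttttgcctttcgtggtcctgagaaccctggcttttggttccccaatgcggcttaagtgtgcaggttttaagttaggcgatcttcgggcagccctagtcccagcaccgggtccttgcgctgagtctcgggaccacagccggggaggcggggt

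The genes differed widely in level among themselves. Levels per length were taken as CPM per 1000 bases, which is the RPKM scale, and the 78 genes that are not copies had a median of 46.4 in Jag1WT. The median was 30.6 for complex I, 29.3 for complex II, 48.6 for complex III, 74.6 for complex IV and 71.2 for complex V. COX7C, a small subunit of cytochrome c oxidase, was the highest in Jag1WT at 285.2 ± 49.9 (SD, n = 3), followed by COX7B at 217.6 ± 15.6 and ATP5F1B, the catalytic beta subunit of ATP synthase, at 202.6 ± 14.5. COX7B and ATP5F1B, neighbours in the order, lay within their SD of each other. Within complex I, the accessory subunit NDUFA1 was highest at 169.3 ± 10.0 and NDUFA10 lowest at 6.32 ± 0.25. In complex II, the iron-sulfur subunit SDHB was at 42.2 ± 3.4 and the flavoprotein SDHA at 14.6 ± 0.71. In complex III, the core protein UQCRC1 was at 72.8 ± 8.3 and UQCRB, which binds ubiquinone, at 24.2 ± 2.1. In complex V, ATP5F1B was the highest and ATP5MC3, a gene for the c subunit of the proton-driven ring, the lowest at 19.2 ± 2.5. COX7B2, a variant of COX7B known from testis, was the lowest of the 78 in every group, at 2.53 ± 1.33 in Jag1WT and 5.02 in Jag1KO + ctrl. A single length per gene was used, the one behind the deposited RPKM, and a gene read mostly from a shorter transcript would be set too low.

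**Figure D1:**
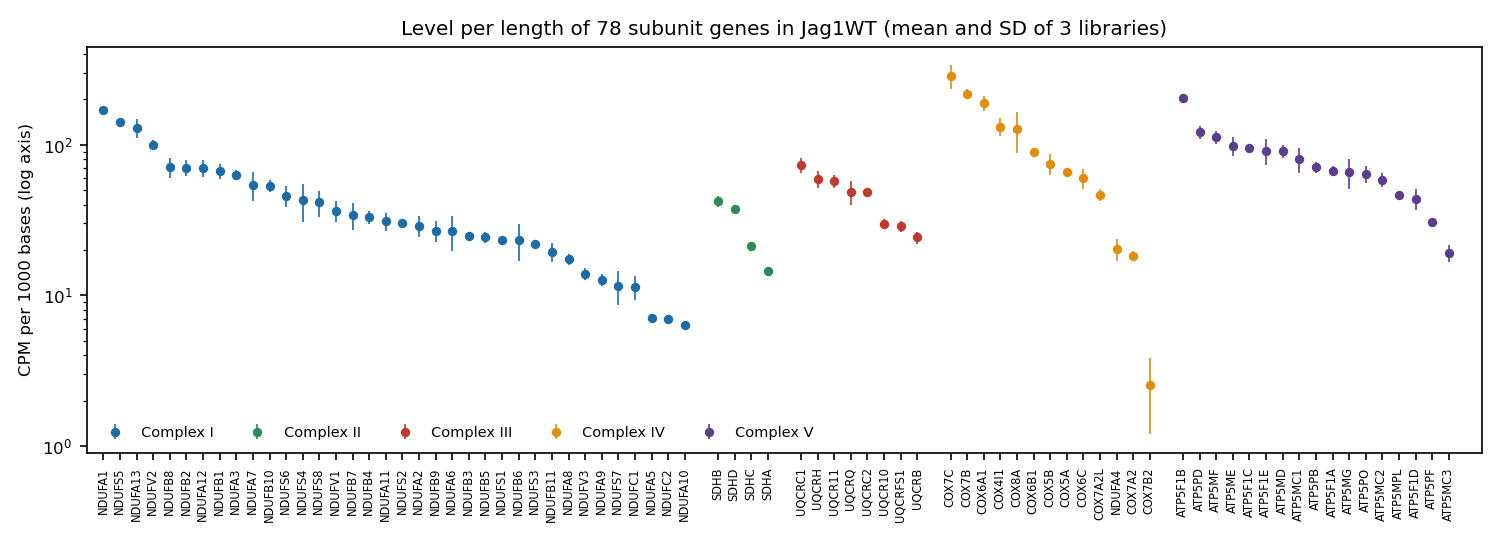
Level per length (CPM per 1000 bases, log axis) of the 78 subunit genes that are not copies in Jag1WT, by respiratory complex and in falling order. Points are means and bars the SD of 3 libraries. COX7C is highest (285.2) and COX7B2 lowest (2.53), with complex I spanning 169.3 to 6.32.

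The 9 symbols below the level were variants and noncoding or readthrough genes. NDUFA4L2, a hypoxia-responsive relative of NDUFA4, reached at most 0.202 CPM in any library, and the tissue-restricted variants COX7A1, COX6B2 and COX8C at most 0.0674, 0.140 and 0.113. The readthrough genes NDUFC2-KCTD14 and ATP5MF-PTCD1 reached at most 0.0681 and 0.0772 CPM. NDUFV2-AS1 reached at most 0.629, and NDUFA6-DT and NDUFB2-AS1 exceeded 1 CPM in 1 library each (1.01 and 1.08). None of the 9 was tested.

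Across the 18 libraries the summed level of the 82 genes varied little. It was 4698, 5378 and 4499 CPM in the 3 Jag1WT libraries, 4678, 5506 and 5081 in Jag1KO, 5514, 5119 and 5171 in Jag1KO + rescue, 5012, 5689 and 4739 in Jag1KO + ctrl, 5020, 5357 and 4906 in siCtrl and 5037, 5583 and 5149 in siJag1. The highest library was 1.26 times the lowest, and all groups overlapped. The genes took between 0.459% and 0.606% of the counts of a library. The mean log2(CPM + 1) of the 82 genes was 5.52 ± 0.14 in Jag1WT, 5.599 ± 0.12 in Jag1KO, 5.59 ± 0.044 in Jag1KO + rescue, 5.61 ± 0.14 in Jag1KO + ctrl, 5.600 ± 0.073 in siCtrl and 5.63 ± 0.071 in siJag1 (SD, n = 3 each). The group means spanned 0.11, the same size as the SD within groups (0.11). The coefficient of variation of a single gene over the 18 libraries had a median of 13.4% (from 7.00% for UQCRC2 to 42.8% for COX7B2), against 19.0% over all genes tested.

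The libraries that were high within a group were mostly those of replicate 2. That library had the highest sum in 5 of the 6 groups, the exception being Jag1KO + rescue, where replicate 1 was highest. In Jag1WT, 72 of the 82 genes had their highest value in replicate 2. This was so for 55 in Jag1KO, 69 in Jag1KO + ctrl, 55 in siCtrl and 49 in siJag1, but for 22 in Jag1KO + rescue. The means of the complexes went up and down together, with Pearson's r between complexes I, III, IV and V from 0.81 to 0.90 over the 18 libraries and lower values for complex II (0.50 to 0.76). The points of such a correlation share the library and its depth, so it is a description.

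**Figure D2:**
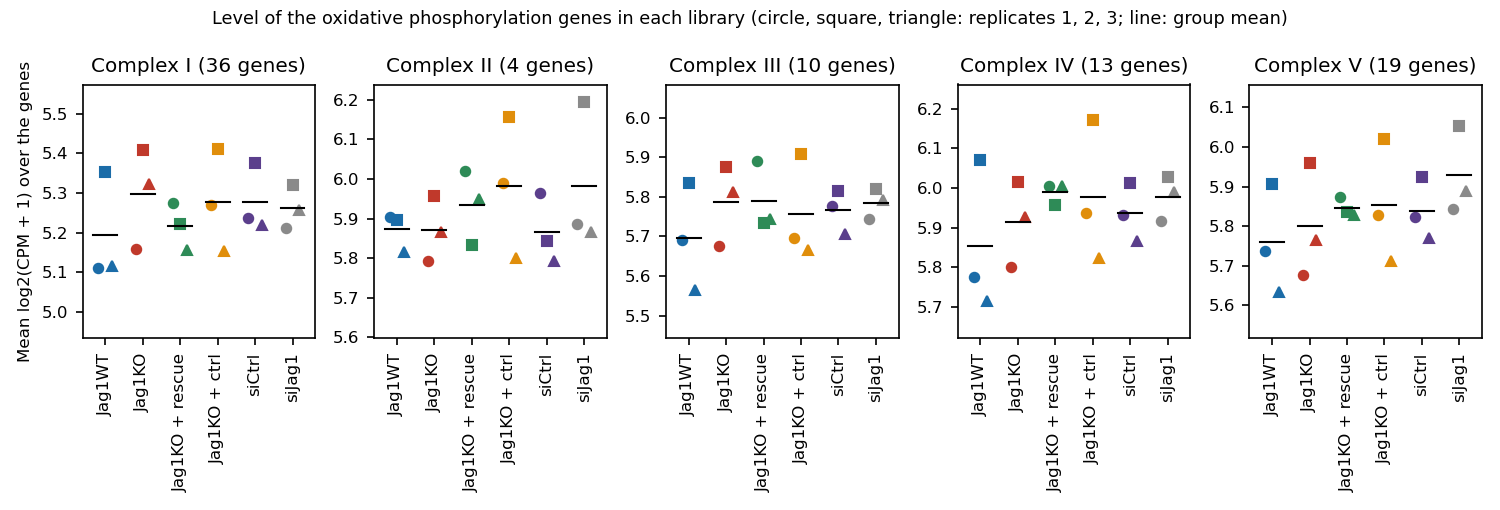
Mean log2(CPM + 1) of the genes of each respiratory complex in every library, by group. The y axes cover ranges of the same width at different positions, the line is the mean of 3 libraries, and the square, replicate 2, lies at the top of most groups other than Jag1KO + rescue.

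The shared pattern did not take in every gene. The Pearson correlation of each gene with the mean of the 82 genes, itself included, over the 18 libraries had a median of 0.55. Of the 82, 49 were above 0.5, against 13.0% of the other genes tested. Only the 82 are part of that mean, so these shares do not compare like with like. ATP5MG, the g subunit of ATP synthase, followed the mean most closely (0.91), before ATP5MC3 (0.89), NDUFA4 (0.88) and ATP5F1B (0.86). NDUFV3 (−0.46), COX7A2L (−0.28), NDUFA1 (−0.26) and NDUFA11 (−0.017) had correlations below 0. NDUFV3 is a small accessory subunit at the NADH-oxidising end of complex I, and COX7A2L is known as a supercomplex assembly factor that joins complexes III and IV. Among the promoters, the genes with the YY1 letters had a median correlation of 0.67 (11 genes) and those without 0.51 (55 genes), for the NRF1 letters the medians were 0.64 (13) and 0.53 (53), and for the ETS letters both were 0.53 (10 and 56). For the SP1 letters the order was the other way, with 0.52 (40) and 0.60 (26). All these ranges overlapped. Outside the 82 genes, the 5 whose level was most alike to their mean were SLIRP (r = 0.91), OSTF1 (0.89), CFL1 (0.88), PSMC3 (0.88) and TPM3 (0.87).

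The mean of the 82 genes also moved with the mean of the 97 cell cycle genes (r = 0.74 over 18 libraries, 0.77 after the group means were removed). The cell cycle list spanned far more, with library means from 4.10 to 6.09. Of the 82 genes, 64 had a positive correlation with it and 36 one above 0.5. The shares of all genes tested with such correlations are not given here, so these counts cannot be read as a trait of the 82. Single genes lay at both ends. The complex I subunit NDUFC1 (0.87), ATP5F1A, the alpha subunit of ATP synthase (0.85), and COX5A, a subunit of complex IV (0.70), were high, and NDUFV3 (−0.85), NDUFA1 (−0.71) and COX7A2L (−0.70) low. These genes were picked out after their values were seen. The part of the cell cycle list in the results below was not tested.

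**Figure D3:**
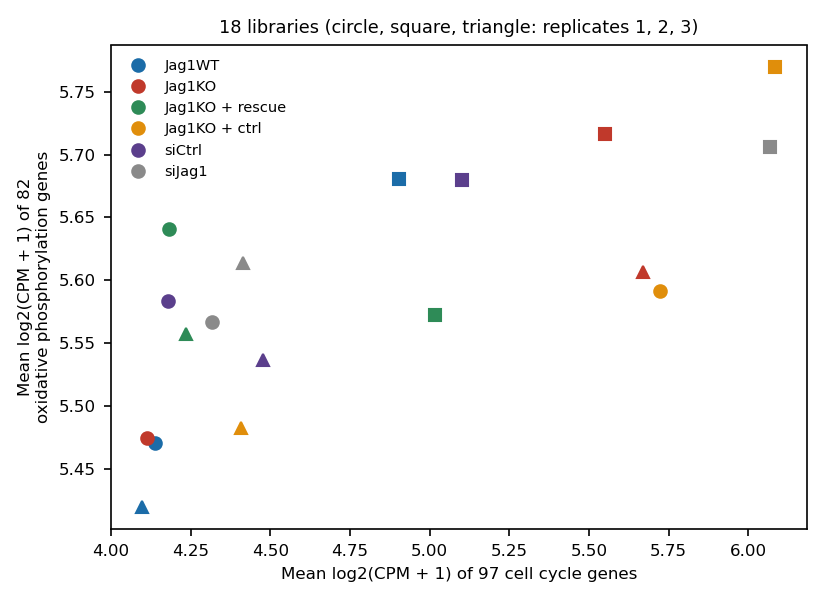
Mean log2(CPM + 1) of the 82 oxidative phosphorylation genes against that of 97 cell cycle genes, 1 point per library, coloured by group and shaped by replicate. The library lowest on both axes is Jag1WT replicate 3 (5.42 and 4.10) and that highest on both is Jag1KO + ctrl replicate 2 (5.77 and 6.09).

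The knockout was compared first, to ask whether these genes differ between cells with and without JAG1. No gene of the 82 passed the edgeR quasi-likelihood test at a Benjamini-Hochberg adjusted p of 0.05 in Jag1WT against Jag1KO, where 0.666% of all 12757 genes did. DESeq2 and limma also called 0 of the 82, and 2.04% and 0.682% of all genes. At an unadjusted p below 0.05 there were 2 genes, both lower in Jag1WT, against 8.72% of all genes, and in 4 genes the 3 libraries of one group did not overlap those of the other, all lower in Jag1WT, against 13.7% of all genes. The 82 genes had a median log2 fold change of −0.078, with 18 above 0 and 64 below, against a median of −0.0088 over all genes tested. With 1 library left out, the median of the 82 ran from −0.17 (without Jag1WT replicate 2) to −0.0044 (without Jag1KO replicate 2). By complex the medians were −0.098 (I), −0.018 (II), −0.080 (III), −0.080 (IV) and −0.076 (V).

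The 2 genes at an unadjusted p below 0.05, named after their values were seen, sit in complexes I and III. NDUFV2, a flavoprotein subunit of complex I that carries an iron-sulfur cluster, had 91.9, 102.8 and 88.2 CPM in Jag1WT and 109.1, 131.5 and 120.1 in Jag1KO. All Jag1WT libraries lay under all Jag1KO libraries, and the log2 fold change was −0.36 ± 0.11 (SE, adjusted p = 0.38 by edgeR). UQCR10, a small subunit of complex III, had 28.4, 31.3 and 27.3 CPM against 35.9, 35.6 and 39.3, with a log2 fold change of −0.35 ± 0.12 (adjusted p = 0.42 by edgeR). In the 9 core subunits other than NDUFV1 chosen to stand for the complexes, the values were smaller. COX5A had 50.3 ± 0.38 and 50.4 ± 8.3 CPM (SD, n = 3 each), and its log2 fold change of −0.0059 had a 95% interval from −0.32 to 0.31. ATP5F1B had 373.4 ± 26.8 and 376.4 ± 36.6 CPM and an interval from −0.28 to 0.25. SDHA had 62.6 ± 3.1 and 61.1 ± 6.5 CPM, with an interval from −0.23 to 0.29, and UQCRFS1, the Rieske iron-sulfur protein of complex III, 35.1 ± 3.0 and 39.4 ± 5.5, with an interval from −0.50 to 0.16. NDUFV1, which binds NADH, had 59.3 ± 9.3 and 71.5 ± 13.9 CPM and an interval from −0.68 to 0.14.

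These intervals set how large a difference could have gone unseen. For 65 of the 82 genes (79.3%) the whole 95% interval of Jag1WT against Jag1KO lay within a 1.5-fold change either way, and this held for 51.9% of all genes tested. No fitted change of the 82 went beyond 1.5-fold. Without Jag1KO replicate 1, the library that stood apart in the cell cycle list, 1 of the 82 genes was called, NDUFV2 (log2 fold change −0.43 ± 0.11, adjusted p = 0.036 by edgeR). Of all genes 9.64% were called there, and the median of the 82 was −0.15.

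The rescue was compared next, to ask whether putting JAG1 back changes these genes. In Jag1KO + rescue against Jag1KO + ctrl, edgeR again called 0 of the 82 at an adjusted p of 0.05. It called 0.00784% of all genes, a single one, which was JAG1 (adjusted p = 0.023 by edgeR). limma called 0 of the 82 and 0.00784% of all genes. DESeq2 called 4 of the 82 (4.88%), NDUFB7 (lower in the rescue) and NDUFV3, COX7B and COX7A2L (higher), and 13.3% of all genes. At an unadjusted p below 0.05 there were 15 of the 82, with 7 higher and 8 lower in the rescue, a share of 18.3% against 30.8% of all genes. The libraries of both groups did not overlap in 21 (13 higher, 8 lower; 25.6% against 32.5% of all genes). The median log2 fold change was −0.038, with 38 genes above 0 and 44 below, and −0.0020 over all genes. Unlike in the knockout, single genes lay far to either side of this median, from −1.07 to 0.76.

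The genes at an unadjusted p below 0.05 lay in every complex except II and III. They are named here after their values were seen. In complex I, NDUFB7, an accessory subunit of the membrane arm, had 15.3, 14.8 and 11.9 CPM in Jag1KO + rescue and 31.1, 36.0 and 20.9 in Jag1KO + ctrl. The groups did not overlap, and replicate 3 of the control was the nearest to the rescue (log2 fold change −1.07 ± 0.23, adjusted p = 0.11 by edgeR and 0.0032 by DESeq2). NDUFV3 went the other way, with 46.7, 33.9 and 36.1 CPM against 19.6, 19.2 and 29.7 (0.76 ± 0.22, adjusted p = 0.11 by edgeR and 0.030 by DESeq2). NDUFS7, an iron-sulfur subunit next to the ubiquinone site, had 14.8, 13.5 and 10.6 CPM against 18.3, 19.8 and 19.3 (−0.57 ± 0.19, adjusted p = 0.11 by edgeR). NDUFA1 had 128.7, 89.6 and 106.2 CPM against 66.7, 73.4 and 84.2 (0.52 ± 0.17, adjusted p = 0.11 by edgeR). NDUFV1, NDUFC1 and NDUFC2 were the other 3 of complex I, with log2 fold changes of −0.44, −0.65 and −0.42. Subunits of one complex thus lay on both sides of 0.

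In complex IV, COX7A2L had 105.8, 103.8 and 111.3 CPM in Jag1KO + rescue and 58.3, 57.1 and 89.1 in Jag1KO + ctrl. The rescue libraries lay above all controls, and again replicate 3 of the control was nearest (0.64 ± 0.19, adjusted p = 0.11 by edgeR and 0.040 by DESeq2). COX7B had 177.3, 113.0 and 136.6 CPM against 82.5, 102.0 and 95.1 (0.60 ± 0.18, adjusted p = 0.11 by edgeR and 0.045 by DESeq2), and COX7A2, the widely expressed form of the same subunit family as COX7A2L, 0.41 ± 0.16 on the log2 scale. COX5A was lower, with 41.0, 40.2 and 42.1 CPM against 63.7, 71.7 and 40.5. Here the third control library lay among the rescue libraries (−0.52 ± 0.21, adjusted p = 0.15 by edgeR). The core subunits other than NDUFV1, COX5A and ATP5F1A lay between −0.37 (UQCRC1) and 0.21 (NDUFS1) on the log2 scale. In complex V, ATP5PB, the b subunit of the peripheral stalk, had 205.9, 168.2 and 187.2 CPM against 132.9, 144.2 and 143.4 (0.41 ± 0.13, adjusted p = 0.11 by edgeR). ATP5F1A had 130.3, 149.2 and 143.1 against 196.3, 236.0 and 152.2 (−0.47 ± 0.18, adjusted p = 0.13 by edgeR), while ATP5F1B, its partner in the catalytic head, had 396.4 ± 8.7 and 393.6 ± 45.1 (SD, n = 3 each; interval from −0.32 to 0.33). ATP5F1D of the central stalk (−0.38) and ATP5MD, a small membrane subunit (0.37), were the other 2 of complex V.

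**Figure D4:**
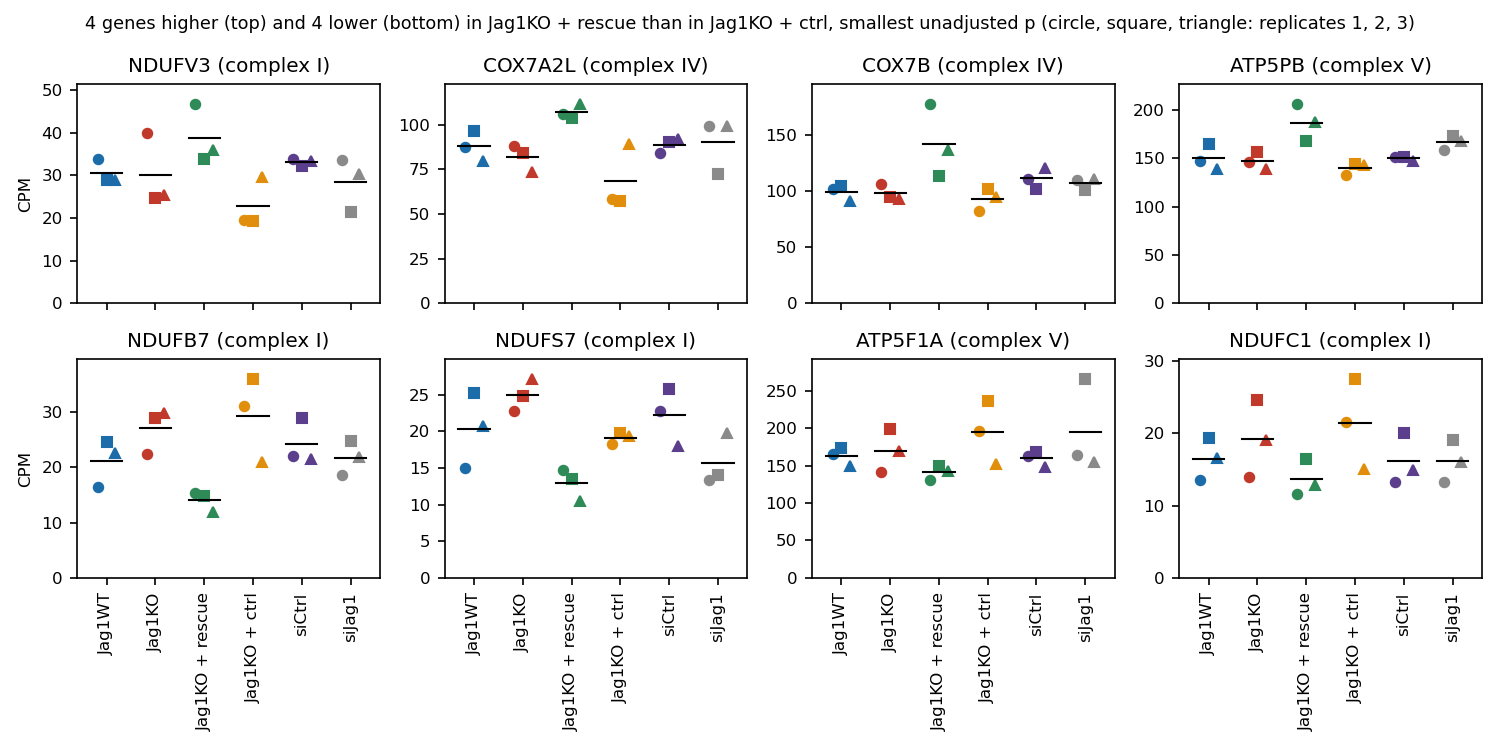
CPM in every library, by group, of the 4 genes higher and the 4 genes lower in Jag1KO + rescue than in Jag1KO + ctrl with the smallest unadjusted p. The line is the mean of 3 libraries. The triangle of Jag1KO + ctrl, replicate 3, lies nearest to the rescue in NDUFV3 (29.7 CPM), COX7A2L (89.1), NDUFB7 (20.9), ATP5F1A (152.2) and NDUFC1 (15.0).

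Jag1KO + ctrl replicate 3 was the control library nearest to the rescue mean in 9 of these 15 genes. Without it, edgeR called 15 of the 82 genes (4 higher, 11 lower in the rescue; 18.3%), and 34.0% of all genes. The median of the 82 was then −0.080, with 32 above 0 and 50 below. The 4 higher were NDUFV3 (1.00 ± 0.18 on the log2 scale), COX7A2L (0.89 ± 0.11), NDUFA1 (0.62 ± 0.17) and ATP5PB (0.43 ± 0.13), and the 11 lower ran from NDUFB7 (−1.26 ± 0.18) to NDUFB5 (−0.44 ± 0.14). This leaves 2 control libraries, both high in the cell cycle list, and the part of that difference was not tested. With all libraries, the whole 95% interval lay within 1.5-fold in 46 of the 82 genes (56.1%), against 22.9% of all genes tested, and 8 of the 82 fitted changes (9.76%) went beyond 1.5-fold, against 26.9% of all genes. With scaling by library totals alone, the median over all genes moved to −0.13 and that of the 82 to −0.16.

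The siRNA comparison asks whether a short-term loss of JAG1 in wild-type cells gives a difference. In siCtrl against siJag1, edgeR called 0 of the 82 genes and 0.0157% of all genes. DESeq2 and limma called 0 of the 82 (0.212% and 0% of all genes). JAG1, the gene silenced, was itself not called by edgeR (log2 fold change 1.68 ± 0.19, adjusted p = 0.11). A count of 0 called here therefore says little about smaller changes. There were 4 genes at an unadjusted p below 0.05, all higher in siCtrl, against 3.85% of all genes, and 9 whose libraries did not overlap (5 higher, 4 lower in siCtrl), against 10.5%. NDUFS8, an iron-sulfur subunit of complex I, had 68.0, 69.7 and 66.6 CPM in siCtrl and 47.2, 41.6 and 59.0 in siJag1 (0.48 ± 0.14, adjusted p = 0.97 by edgeR). NDUFS7, its neighbour in the complex, had 22.8, 25.8 and 18.04 against 13.4, 14.1 and 19.7, and the groups overlapped (0.51 ± 0.20). NDUFB10 had 41.2, 45.7 and 42.6 against 36.1, 35.6 and 35.3 (0.28 ± 0.10), and ATP5F1D 47.0, 55.5 and 47.6 against 39.1, 30.7 and 44.5 (0.40 ± 0.15). These 4 were singled out after their values were seen.

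Of the remaining genes, ATP5MGL (−0.41), NDUFA9 (−0.34) and UQCR11 (0.30) had fitted log2 fold changes as large as some of these 4, at an unadjusted p above 0.05. The median of the 82 was −0.031, with 30 above 0 and 52 below, and −0.0071 over all genes. With 1 library left out it ran from −0.078 (without siCtrl replicate 2) to 0.014 (without siJag1 replicate 2, the library high in the cell cycle list), and it was −0.059 without siJag1 replicate 1. With the replicate number as a block, 6 of the 82 had an unadjusted p below 0.05, 0 were called, and 0.0314% of all genes were. The share of all genes at that unadjusted p with the block is not given here. The core subunits lay between −0.28 (ATP5F1A) and 0.067 (NDUFV1). In 68 of the 82 (82.9%) the interval lay within 1.5-fold, against 56.1% of all genes tested. No fitted change of the 82 was beyond 1.5-fold there, against 4.39% of all genes. The fold changes went with base composition. Over the 82 genes, which are not independent replicates, Pearson's r between the GC content of the transcript and the log2 fold change was 0.62, and 0.35 over all genes tested with a GC value. The 4 genes above have 59.0% to 69.5% GC, and the 82 genes a median of 46.7%. In the rescue the same r was −0.31 (−0.23 over all genes), and in Jag1WT against Jag1KO −0.12 (0.045). The part of GC content in these results was not tested.

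**Figure D5:**
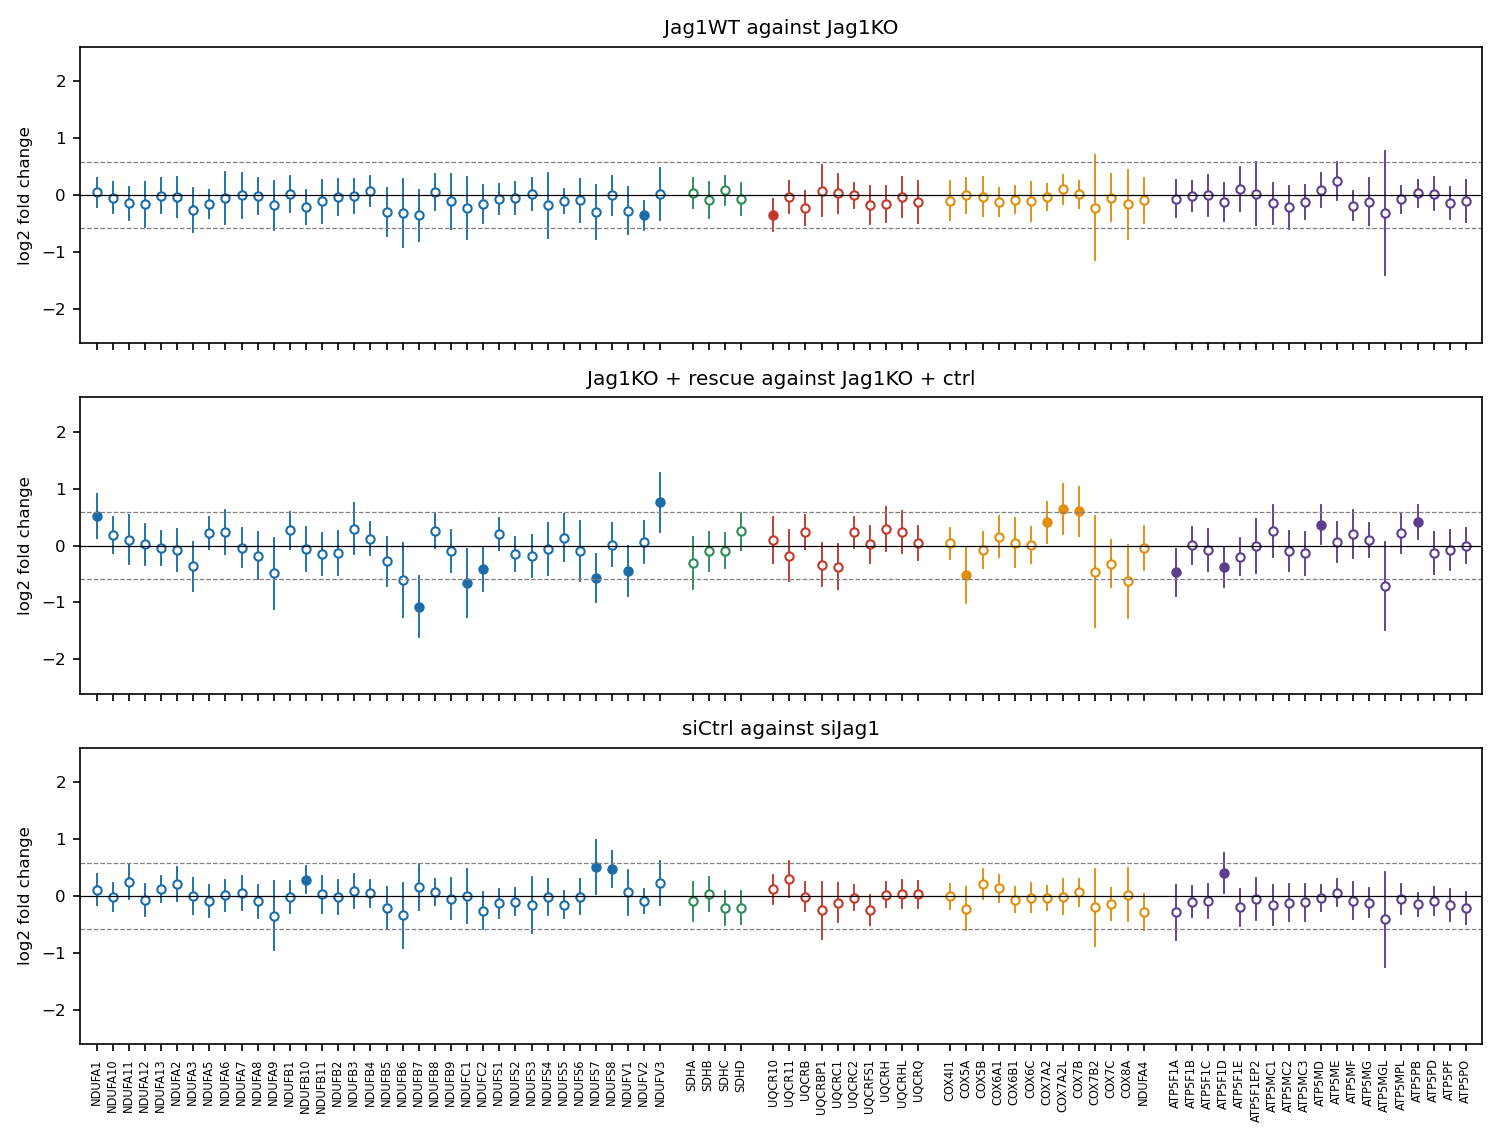
Log2 fold changes of the 82 genes by respiratory complex (I to V from left to right) in the 3 comparisons in which JAG1 was altered, with 95% intervals as vertical lines and 1.5-fold as dashed lines. Positive values are higher in the group named first, and filled points have an unadjusted p below 0.05 (2, 15 and 4 genes). The points spread most in the rescue, from −1.07 to 0.76.

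Whether a gene responded differently in 2 of the comparisons was tested directly over 12 libraries. edgeR called 0 of the 82 interactions in each of the 3 pairs of comparisons, and 9, 5 and 10 of the 82 had an unadjusted p below 0.05, against 22.3%, 3.95% and 20.0% of all genes (85, 11 and 12 of which were called). The pairs were the knockout and the rescue, the knockout and the siRNA, and the rescue and the siRNA. The smallest p in each was for COX7B (difference −0.56 ± 0.21, adjusted p = 0.15), NDUFB10 (−0.49 ± 0.15, adjusted p = 0.87) and NDUFB7 (−1.25 ± 0.30, adjusted p = 0.087, all by edgeR). NDUFS7, at −0.57 in the rescue and 0.51 in the siRNA comparison, and ATP5F1D, at −0.38 and 0.40, had fitted changes of opposite sign in these comparisons, which share no library.

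In 2 comparisons JAG1 was not altered on purpose, and they give the background of handling. In Jag1KO + ctrl against Jag1KO, edgeR called 0 of the 82 genes and 0% of all genes. At an unadjusted p below 0.05 there was 1 of the 82, against 5.76% of all genes, and 3 did not overlap, against 9.97%. The gene was NDUFS7, with 18.3, 19.8 and 19.3 CPM in Jag1KO + ctrl and 22.8, 24.8 and 27.1 in Jag1KO (−0.39 ± 0.15, adjusted p = 0.76 by edgeR). In siCtrl against Jag1WT, edgeR called 0 of the 82 and 0% of all genes, with 1 of the 82 at an unadjusted p below 0.05 (1.35% of all genes) and 4 that did not overlap (6.29%). The gene was UQCR10, with 35.9, 38.2 and 34.7 CPM in siCtrl and 28.4, 31.3 and 27.3 in Jag1WT (0.31 ± 0.10, adjusted p = 1.00 by edgeR). DESeq2 and limma called 0 of the 82 in both, and DESeq2 called 0.0862% and 0% of all genes. Without Jag1KO replicate 1 or Jag1KO + ctrl replicate 3, the first comparison still had 0 of the 82 called, with medians of −0.075 and 0.052, and 0% and 2.3% of all genes were called. Without the latter library 8 of the 82 (9.76%) had an unadjusted p below 0.05, against 24.4% of all genes. In siCtrl against Jag1WT with the replicate number as a block, 10 of the 82 had an unadjusted p below 0.05, 0 were called, and 0.0705% of all genes were. The share of all genes at an unadjusted p below 0.05 with the block is not given here. UQCR10 thus had its low value in the Jag1WT libraries that also enter the knockout comparison. The medians of the 82 were −0.0012 and 0.065, the latter with 63 genes above 0 and 19 below, between groups that both express JAG1. Jag1KO + ctrl, Jag1KO and Jag1WT are also used in the knockout and rescue comparisons, and siCtrl in the siRNA comparison, so these values are not independent of those above.

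Other genes of the pathway were taken from lists. Of 5 further oxidative phosphorylation genes that the symbols leave out, none was called with all libraries. Of all genes, 0.666%, 0.00784% and 0.0157% were called in the knockout, the rescue and the siRNA comparison. CYC1, the cytochrome c1 of complex III, had 84.4 ± 9.9 CPM in Jag1WT and 94.0 ± 12.7 in Jag1KO, and NDUFAB1, the acyl carrier protein of complex I, 23.1 ± 1.3 and 26.8 ± 4.1. ATP5IF1, which inhibits the ATP synthase when it runs in reverse, had 65.6 ± 9.5 in siCtrl and 55.0 ± 2.4 in siJag1. In Jag1WT it had 55.1 ± 6.0 and in Jag1KO 60.3 ± 7.4 (SD, n = 3 each). Its log2 fold change was 0.26 ± 0.12 (SE) in the siRNA comparison and −0.13 ± 0.14 in the knockout. Those of CYC1 and NDUFAB1 in the knockout were −0.16 ± 0.14 and −0.22 ± 0.15. CYCS, cytochrome c itself, had 329.8, 207.6 and 297.6 CPM in Jag1KO + rescue and 113.3, 126.3 and 188.1 in Jag1KO + ctrl. No rescue library overlapped a control library, which was so for 32.5% of all genes. The log2 fold change was 0.95 ± 0.25 (adjusted p = 0.11 by edgeR). Without Jag1KO + ctrl replicate 3 it was 1.21 ± 0.20 (adjusted p = 0.0069 by edgeR), in a fit that called 34.0% of all genes. In the knockout and the siRNA comparison the log2 fold changes of CYCS were 0.099 ± 0.18 and −0.097 ± 0.13.

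The regulators of mitochondrial biogenesis had a median log2 fold change of 0.50 over 13 genes in the rescue, −0.074 in the knockout and 0.073 in the siRNA comparison. None was called. At an unadjusted p below 0.05 there were 6 higher and 1 lower in the rescue, against 30.8% of all genes. In the knockout and the siRNA comparison there were 0, against 8.72% and 3.85% of all genes. Without Jag1KO + ctrl replicate 3, 6 were called higher and 1 lower in the rescue, against 34.0% of all genes, with a median of 0.61. Without Jag1KO replicate 1, 1 was called in the knockout, against 9.64% of all genes, and the median was 0.11. TFAM packages mitochondrial DNA and helps to start its transcription. It had 154.5, 109.2 and 131.7 CPM in Jag1KO + rescue and 73.9, 80.0 and 98.3 in Jag1KO + ctrl. The log2 fold change was 0.64 ± 0.17 (adjusted p = 0.11 by edgeR), and 0.77 ± 0.16 (adjusted p = 0.013 by edgeR) without Jag1KO + ctrl replicate 3. NRF1 had 25.7 ± 2.7 and 20.7 ± 4.5 CPM in the same groups, and ESRRA, a nuclear receptor that acts with the PGC-1 coactivators, 55.0 ± 11.7 and 51.3 ± 10.7 (SD, n = 3 each). The coactivator genes PPARGC1A and PPARGC1B had 6.95 ± 1.3 and 8.57 ± 3.9 CPM in the rescue and 5.48 ± 1.2 and 5.04 ± 0.94 in its control. The mean of this list ran against that of the 82 genes over the 18 libraries (r = −0.49).

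Of 50 assembly factors for the complexes, edgeR called 0 in the knockout, the rescue and the siRNA comparison, with 0, 13 and 1 at an unadjusted p below 0.05, where the shares over all genes are 8.72%, 30.8% and 3.85%. Their mean followed that of the 82 genes (r = 0.75), as did those of 21 citric acid cycle genes (0.80) and 81 mitochondrial ribosomal proteins (0.75). Of the 21 citric acid cycle genes, 1, 5 and 1 were at an unadjusted p below 0.05 in the same comparisons, and of the 81 ribosomal proteins 1, 17 and 2. Of the 13 subunits encoded in mitochondrial DNA, 0 were in each, and their mean went less closely with that of the nuclear genes (0.44). Of 18 glycolysis genes, 0, 11 and 0 were at an unadjusted p below 0.05, all 11 lower in the rescue, and the median of the list there was −0.69. Of the 97 cell cycle genes, 1 of which (MRPL36) is also a mitochondrial ribosomal gene, 29, 43 and 0 were (all 29 lower in Jag1WT, and 40 of the 43 lower in the rescue), and the list's medians were −1.01, −1.12 and −0.59. With all libraries, edgeR called none of the genes of these lists at an adjusted p of 0.05, and the medians of the 82 nuclear subunit genes were −0.078, −0.038 and −0.031 in the 3 comparisons.

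These list counts and medians also moved with the libraries that stood apart. Jag1KO + ctrl replicate 3 had a mean log2(CPM + 1) of 8.45 over the glycolysis genes, inside the range of the rescue libraries (7.85 to 8.48), while the other controls were at 9.11 and 9.17. Without it, edgeR called 14 of the 18 glycolysis genes, all lower in the rescue (median −0.86), and 64 of the 97 cell cycle genes, 63 of them lower (median −1.51), against 34.0% of all genes. It called 9 of the 50 assembly factors, 7 of the 21 citric acid cycle genes, 15 of the 81 ribosomal proteins and 0 of the 13 subunits encoded in mitochondrial DNA. Without Jag1KO replicate 1, it called 71 of the cell cycle genes in the knockout, all lower in Jag1WT (median −1.37), 4 citric acid cycle genes, 4 ribosomal proteins, 1 mitochondrially encoded subunit and 0 assembly factors and glycolysis genes, against 9.64% of all genes. The glycolysis median there was −0.16, against 0.026 with all libraries. In the siRNA comparison the cell cycle median changed sign without siJag1 replicate 2. It was 0.36, with 87 genes above 0 and 10 below, against −0.59 with all libraries, with 4 above and 93 below. None of the 97 was called there, against 0.0314% of all genes.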

How the data were processed

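RNA was measured in 18 libraries of stranded mRNA from MDA-MB-231 spheroids, 3 per group, labelled as biological replicates. The authors aligned reads to hg38 (aligner not given in the sources used here) and counted uniquely mapped reads per gene, with featureCounts, edgeR 3.28.0 and R 3.6.1 named in the submitters' processing notes. The counts deposited are raw. The deposited CPM values, used here for levels, are the authors' counts scaled to TMM-normalized library size, and the deposited RPKM values gave 1 length per gene. The RPKM table has 3 columns whose names match no label, and these were left aside. Rows without a symbol (292, holding up to 0.0442% of a library's reads) were dropped.

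Genes above 1 CPM in at least 9 of 18 libraries were tested with the quasi-likelihood test of edgeR 4.0.16 (R 4.3.3) on the counts of the 6 libraries compared, with TMM factors and Benjamini-Hochberg adjustment over all 12757 genes. Called means an adjusted p below 0.05, and intervals cover 95%. Alternatives were DESeq2 1.42.0, limma 3.58.1 on log2(CPM + 1), other scalings and filters, 1 fit of all libraries, a replicate block and leaving out each library. The fits were tested on simulated data. The members and lists were chosen with earlier results of these data known, and no list was tested as a set. Genes named by rule were any called (at most 5 per complex and direction), core and variant subunits, the highest and lowest per complex, symbols that are not subunit genes, selected regulators and other pathway genes, and the 5 genes most alike. GC content is that of canonical GENCODE 44 transcripts.

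Deviations from the group means correlated between libraries sharing a replicate number at 0.54, 0.52 and 0.26 in siCtrl and siJag1. In siCtrl and Jag1WT they did so at 0.60, 0.71 and 0.21. Pairing there was judged from the data only. The main fits, which gave the p-values, SE and intervals, are unpaired, and the replicate block was an alternative. With the block, the subunit genes at an unadjusted p below 0.05 went from 4 to 6 in siCtrl against siJag1. In siCtrl against Jag1WT they went from 1 to 10. The shares of all genes at that p were 3.85% and 1.35% without the block. With the block they are not given here, so the rise cannot be read as particular to the subunit genes. In each other comparison at least 1 correlation was below 0.1.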

Additional observations from a re-analysis of the deposited data

How the results depend on the processing

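The count of 0 of the 82 genes called was the same in Jag1KO + ctrl against Jag1KO, siCtrl against Jag1WT and siCtrl against siJag1 under every alternative run. In Jag1WT against Jag1KO it ranged from 0 to 1 when 1 library was left out (1 without Jag1KO replicate 1) and was 0 otherwise. In Jag1KO + rescue against Jag1KO + ctrl it was 4 with DESeq2 (13.3% of all genes), 11 with 1 fit of all 18 libraries (26.3%), from 0 to 15 when 1 library was left out (15 without Jag1KO + ctrl replicate 3, with 34.0%), and 0 under the other alternatives. The median of the 82 genes there was −0.16 with scaling by library totals, and it turned positive (0.057) without Jag1KO + ctrl replicate 2. The count of genes whose change differed between the knockout and the rescue ranged from 0 to 4 with 1 library left out. For this count and the next, the shares of all genes are not given here. Between the rescue and the siRNA comparison it was 2 with 1 fit of all 18 libraries, 1 with the replicate block, and from 0 to 5 with 1 library left out, the 4 and the 5 both without Jag1KO + ctrl replicate 3. With the replicate number as a block, 0 of the 82 genes were called in each of the 5 comparisons. This includes siCtrl against siJag1 and siCtrl against Jag1WT, where libraries sharing a replicate number correlated. No call changed apart from that interaction. The cause of these differences was not tested. The median of siCtrl against Jag1WT ran from 0.015 to 0.15 with 1 library left out, without Jag1WT replicate 3 and replicate 2. ATP5MGL dropped out of at least 1 comparison under the filter on 3 of 6 libraries. COX7B2 and ATP5MGL, with as few as 26 and 6 reads in a library, were measured at the lowest depth. The lists were refitted without the libraries that stood apart after the data were seen.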

Other observations

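The 13 subunits encoded in mitochondrial DNA had a higher fitted level in siCtrl than in Jag1WT in 13 of 13 cases. They were measured in the same libraries and are not 13 independent cases. Their summed level was 50652, 66772 and 63243 CPM in siCtrl and 49442.5, 52586 and 50314 in Jag1WT. siCtrl replicate 1 thus lay within the Jag1WT range. The groups did not overlap in 1 of the 13, against 6.29% of all genes. The median difference was 0.25 on the log2 scale, with a lowest value of 0.16 for ND6 and a highest of 0.33 for ATP8. edgeR called 0 of them, and 2 had an unadjusted p below 0.05, against 1.35% of all genes. In siCtrl against siJag1, 11 of the 13 were above 0, with a median of 0.081, and in Jag1WT against Jag1KO 3 were, with a median of −0.075.

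COX7B2, the variant of a cytochrome c oxidase subunit with the widest spread of the 82 genes, had 4.98, 7.61 and 2.77 CPM in Jag1KO + ctrl, and 2.15, 3.09 and 3.73 in Jag1KO. It had 2.32, 4.11 and 2.94 CPM in siJag1, and in this group, as in Jag1WT (1.64, 4.13 and 1.96), Jag1KO + ctrl and siCtrl (2.48, 3.37 and 2.28), replicate 2 was the highest.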
